A study of Mus musculus with 6 samples.

Results

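The genes described here are 9 complement genes, C1ra, C1s1, C2, C3, C4b, Cfb, Cfd, Cfp and Serping1, out of 20071 genes counted. They were chosen by name, as components and regulators of the complement cascade, and each had 1 row of counts. Poly(A) RNA was sequenced from mesenchymal stromal cells (MSCs) taken from the femurs of 6-week-old C57BL/6J mice and kept for 7 days in osteogenic medium (dexamethasone at 100 nM, ascorbic acid at 50 μg/mL and β-glycerophosphate at 5 mM). The conditional knockout group (CKO) was Prrx1-Cre;Pcif1fl/fl and the control group its Pcif1fl/fl littermates, which the labels call WT, with 3 libraries each. All mice carried loxP sites around exons 5 to 7 of Pcif1, whose product methylates an adenosine next to the mRNA cap, and Prrx1-Cre, which is driven in limb mesenchyme, removes that stretch. Blood-derived cells in a culture are outside that lineage. The labels show 3 libraries per genotype where the series' design text speaks of duplicates. Nothing in the sources used here ties a library to its own mouse, so p-values measure the spread between these libraries.

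Complement is a cascade of plasma proteins that marks surfaces for uptake and can pierce membranes. In the classical pathway C1q binds a target and recruits the proteases C1r and C1s. C1s cuts C4 and C2, and the fragments join into an enzyme that cuts C3, the protein on which all routes meet. In the alternative pathway factor D cuts factor B bound to C3 fragments, properdin steadies the resulting enzyme, and C1 inhibitor blocks C1r and C1s at the start of the classical route. The liver makes most of these proteins, but stromal cells, adipocytes and macrophages make some of them too, and factor D is also known as adipsin for its release by adipocytes.

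Levels are CPM, read counts scaled to library size with the TMM factors of edgeR. Differences are log2 fold changes of CKO over control, given with their standard error (SE). A gene was called when its adjusted p-value was under 0.05, from the quasi-likelihood test of edgeR adjusted by the Benjamini-Hochberg method over the 13733 genes tested. The libraries held 20258209 to 28227696 counts. Control replicate 3 stood apart: chi-square values per gene were 88.5 and 105 against the other control libraries, compared with 2.89 to 10.7 for the other pairs within a genotype, and 3.63% of its counts were mitochondrial, against 1.40% to 1.57% elsewhere. All pairs differed by more than counting noise and each library was kept as 1 sample, which leaves unknown whether any share a mouse or culture. Pcif1 itself was at 39.3 to 42.8 CPM in control and 37.8 to 39.7 CPM in CKO libraries, and a count per gene does not show the deleted exons. The inactive-X transcript Xist was at 232 to 443 CPM in control and 0.722 to 1.79 CPM in CKO libraries, and the Y-linked Ddx3y was counted in all 6, at 48.4 to 62.2 and 99.1 to 104 CPM. These sex-linked transcripts moved with the genotype, so for every gene described here the genotype and the sex makeup of the cultures cannot be told apart. The cultures held transcripts of more than stromal cells. The 10 mesenchymal stromal markers summed to 7740 to 10170 CPM in control and 13250 to 14070 CPM in CKO, with Prrx1 at 211 to 283 and 276 to 283 CPM. The 10 macrophage markers summed to 27890 to 30130 and 27510 to 30970 CPM.

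Of the 9 genes, 8 passed the filter on low counts and were tested, and Cfb did not pass. C3, Cfd, Serping1 and C1ra were lower in CKO MSCs and none was higher. The 4 genes called lower stand beside 4.51% of all genes tested, and the count of 0 called higher stands beside 2.88%. Without adjustment, at a p-value under 0.05, the counts were 5 lower and 1 higher, where 11.8% of all genes tested were lower and 9.56% higher. DESeq2, run without that filter, called 5 of the 9 lower and 0 higher. Over all 20071 genes it called 4.14% lower and 2.95% higher, a share over more genes than that of edgeR. C3, Cfd and Serping1 were also lower by at least 1 on the log2 scale, as were 2.5% of all genes tested. In 5 of the 8 genes every CKO library lay below every control library, against 15.7% of all genes, and in 0 of the 8 above, against 15%. Cfd passed the filter only through the control libraries, so a count that holds it is a description of the genes tested and no more. RNA was taken from whole cultures, in which fewer cells of a type and less RNA per cell cannot be told apart.

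**Figure D1:**
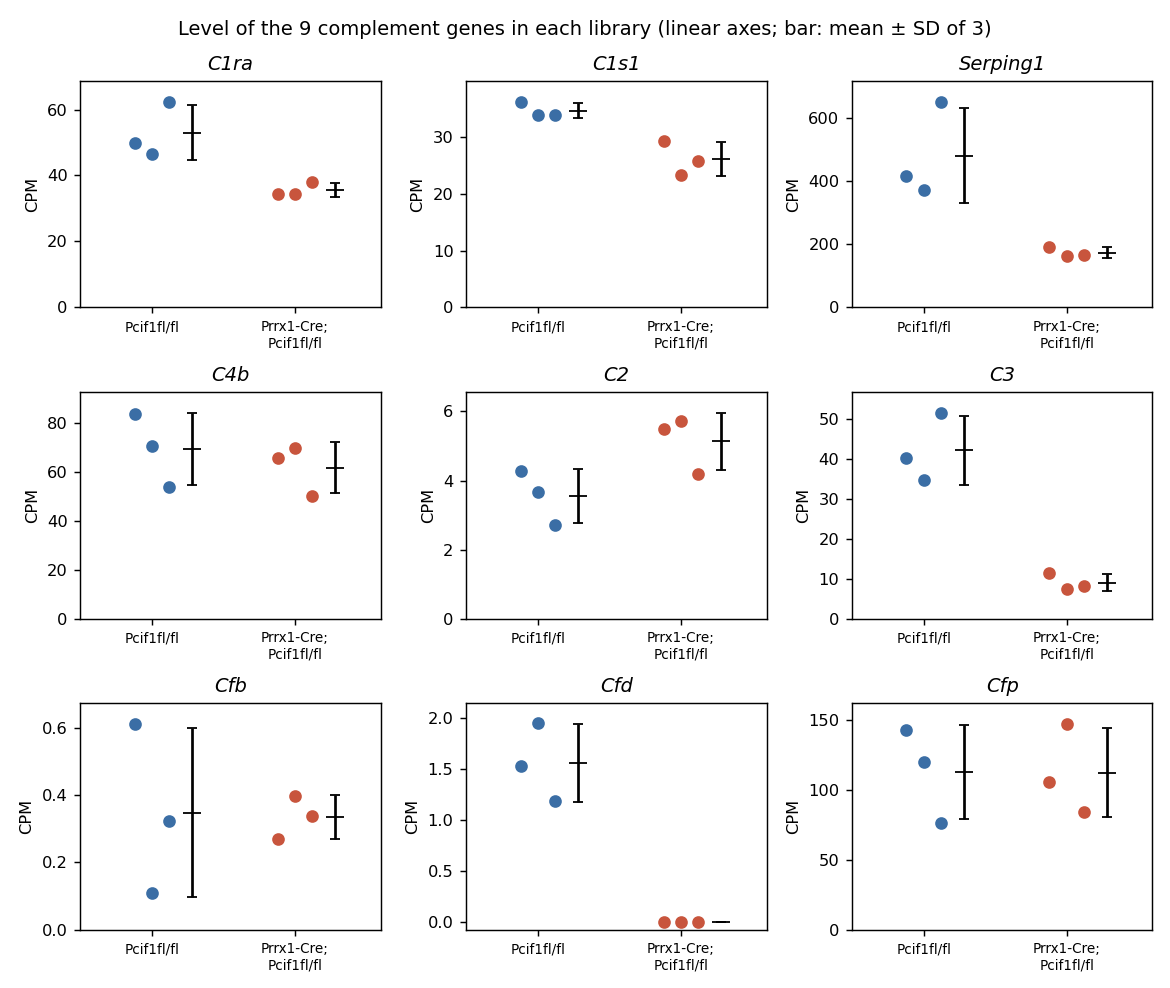
Level in CPM (linear vertical axis) of the 9 complement genes in each library, with control (Pcif1fl/fl) in blue and CKO (Prrx1-Cre;Pcif1fl/fl) in red, 1 point per library in replicate order, and the mean ± SD of 3 beside the points. The groups are apart for C1ra, C1s1, Serping1, C3 and Cfd and overlap for C4b, C2, Cfb and Cfp.

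The promoter sequences of C3 and Cfd, the genes with the largest falls, and of Cfp, whose levels overlapped most closely, are shown to let them be set side by side. Each is the 150 bases before the RefSeq start on GRCm38.p6, read 5′ to 3′ on the gene's strand. The coordinates are chr17:57228137-57228286 on the minus strand for C3, chr10:79890703-79890852 on the plus strand for Cfd and chrX:20931556-20931705 on the minus strand for Cfp. Capitals mark the match to a searched motif.
C3: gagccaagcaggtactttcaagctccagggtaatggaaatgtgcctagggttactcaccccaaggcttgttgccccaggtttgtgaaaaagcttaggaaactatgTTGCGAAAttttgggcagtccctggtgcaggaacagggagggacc
Cfd: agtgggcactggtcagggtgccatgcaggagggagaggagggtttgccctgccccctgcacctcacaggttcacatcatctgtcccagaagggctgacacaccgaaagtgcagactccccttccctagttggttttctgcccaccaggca
Cfp: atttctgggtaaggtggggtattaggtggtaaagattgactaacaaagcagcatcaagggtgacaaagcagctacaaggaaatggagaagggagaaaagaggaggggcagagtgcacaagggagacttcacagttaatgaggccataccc
Windows from 250 bases before to 50 after the start were present for 5 of the 9 genes, C1ra, C1s1, C3, Cfd and Cfp, and were searched on both strands for 4 motifs. The C/EBP site TTGCNNAA was found in C3 at positions -45 to -38 from the start, in C1ra at 17 to 24, and in C1s1 at -242 to -235, and 10.8% of all 32851 windows hold it. The gamma-activated site TTCNNNGAA was found in C1ra at 33 to 41, and 8.30% of windows hold it. The interferon-stimulated response element GAAANNGAA, in 8.56% of windows, and the NF-kB form GGGANTTCC, in 1.68%, had no match in the 5 genes. The windows of Cfd and Cfp held none of the 4 motifs, so C3 and Cfd shared none of these letter strings. Since PCIF1 acts on an adenosine beside the cap, the first annotated base was read as well. GENCODE gives A for C1s1, C2, C3, C4b, Cfd and Serping1, G for C1ra and Cfb, and T for Cfp, whereas the RefSeq start of C1ra, which lies downstream of the GENCODE one, is an A. Of the genes called lower, C3, Cfd and Serping1 begin with A by GENCODE, and of those tested and not called, so do C1s1, C2 and C4b. Cap methylation was not measured in these libraries.

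C1ra and C1s1 encode the mouse C1r and C1s proteases, which together with C1q form the first component of the classical pathway. They are neighbours on chromosome 6, C1ra from 124512405 to 124523443 on the plus strand and C1s1 from 124530345 to 124542359 on the minus strand. C1ra was at 50.0, 46.5 and 62.4 CPM in control replicates 1 to 3 and at 34.4, 34.3 and 38.01 CPM in CKO replicates 1 to 3. All 3 control libraries were the higher ones, with replicate 3 at the top. The means were 52.9 ± 8.37 and 35.6 ± 2.12 CPM (SD, n = 3), and the log2 fold change was -0.57 (SE 0.13, adjusted p = 0.0332, edgeR). The call of C1ra was lost when control replicate 1 or CKO replicates 1, 2 or 3 were left out. The adjusted p was then 0.0565, 0.163, 0.142 and 0.102 from edgeR, with log2 fold changes of -0.61, -0.54, -0.55 and -0.62. In those fits 2.32% to 3.49% of all genes were called lower, against 4.51% with all 6 libraries. C1s1 was at 36.25, 33.85 and 33.9 CPM in control and at 29.3, 23.4 and 25.9 CPM in CKO libraries. Its groups were apart as well, with control values close together. The difference of C1s1, -0.40 on the log2 scale (SE 0.11), did not pass the test over all genes (adjusted p = 0.0737, edgeR). It did so with DESeq2 (adjusted p = 0.0467) and without control replicate 3 (adjusted p = 0.00662, edgeR). The antisense gene Gm16567 overlaps 18.4% of the exonic bases of C1s1, and since the use of strand in counting is not given in the sources used here, its reads could be among them.

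Serping1 encodes C1 inhibitor, the serpin that inactivates C1r and C1s and also restrains the contact system. It lies on chromosome 2 from 84765387 to 84775444 on the minus strand. Its level was 417, 372 and 651 CPM in control and 193, 163 and 166 CPM in CKO replicates 1 to 3. Every control library was above every CKO library, and control replicate 3 was far above its group. The mean fell from 480 ± 150 to 174 ± 16.3 CPM (SD, n = 3), and the fitted level was 2.76-fold higher in control (log2 fold change -1.465, SE 0.20, adjusted p = 0.00351, edgeR). Without control replicate 3 the log2 fold change was -1.18, and the gene was still called. Its estimate was further from 0 than that of either protease it binds, and the difference between the genes was not tested. Serping1 had the highest mean level of the 9 per length in both groups, although its CKO libraries overlapped those of Cfp.

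C4b and C2 encode the substrates that C1s cuts, and C3 the substrate of the enzyme they form. C4b (chromosome 17, 34728380 to 34743882, minus strand) was at 83.4, 70.6 and 53.9 CPM in control and at 65.5, 69.6 and 50.1 CPM in CKO libraries. The groups overlapped, and replicate 3 was the lowest in each. The log2 fold change of C4b was -0.17 (SE 0.18, adjusted p = 0.643, edgeR). C2 (chromosome 17, 34862604 to 34898265, minus strand) was at 4.28, 3.675 and 2.725 CPM in control and at 5.49, 5.72 and 4.19 CPM in CKO libraries. Only CKO replicate 3 reached into the control range. C2 was the 1 tested gene of the set with a positive estimate, 0.53 (SE 0.22), and it did not pass the test (adjusted p = 0.210, edgeR). Of the exonic bases of C2, 46.9% overlap the same-strand Gm20547 and the antisense Zbtb12, so its reads are not all certain to be its own. C4a, a near-identical copy of C4b, was at 0.257 to 0.961 CPM in control and 0.450 to 1.11 CPM in CKO, and with its reads added the log2 fold change of C4b was -0.16.

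C3 showed the largest fall among those of the 9 genes that were counted in all 6 libraries. It lies on chromosome 17 from 57203970 to 57228136 on the minus strand. Its level was 40.1, 34.6 and 51.5 CPM in control and 11.3, 7.52 and 8.03 CPM in CKO replicates 1 to 3. The lowest control library was well above the highest CKO library, and the gap exceeded the range within either group. The means were 42.1 ± 8.625 and 8.965 ± 2.08 CPM (SD, n = 3), a 4.685-fold difference in the fit (log2 fold change -2.23, SE 0.21, adjusted p = 0.000481, edgeR). The value was -2.05 without control replicate 3. C3 was called under every alternative tool, scaling, filter and left-out library that was run, with log2 fold changes of -2.43 to -2.05.

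Cfb, Cfd and Cfp belong to the alternative pathway. Cfd encodes factor D, the protease that cuts factor B, and lies on chromosome 10 from 79890853 to 79892655 on the plus strand. It had 35, 53 and 33 reads in control replicates 1 to 3, or 1.53, 1.95 and 1.18 CPM, and 0 reads in each of the 3 CKO libraries. The gene was scarce in 1 genotype and not detected in the other. Against a floor of 3 counts over the group, which is 0.0476 CPM, the 121 reads of control give a level at least 32.6-fold lower in CKO MSCs (adjusted p = 0.00247, edgeR). Cfd was also called without control replicate 3 (adjusted p = 1.89e-05, edgeR). The floor covers counting error only. Cfb, the substrate of factor D (chromosome 17, 34856374 to 34862518, minus strand), had 14, 3 and 9 reads in control and 6, 8 and 7 in CKO libraries. The groups overlapped at 0.348 ± 0.252 and 0.335 ± 0.0641 CPM (SD, n = 3). No difference in Cfb was detectable at this depth, and 79.5% of its exonic bases are shared with Gm20547.

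Cfp encodes properdin, a protein that promotes the cascade by holding its C3-cutting enzyme together, and lies on chromosome X from 20925454 to 20931555 on the minus strand. Its level was 142.5, 119.6 and 76.3 CPM in control and 105.5, 147.2 and 84.5 CPM in CKO replicates 1 to 3. The groups covered nearly the same range, with replicate 3 the lowest in each. The means were 112.8 ± 33.65 and 112.4 ± 31.9 CPM (SD, n = 3). The log2 fold change was -0.0046 with a SE of 0.26 (adjusted p = 0.995, edgeR), a spread that leaves room for moderate differences in either direction. Cfp is X-linked, and the Xist and Ddx3y values given above differ between the genotypes. Their part in the level of Cfp was not tested.

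**Figure D2:**
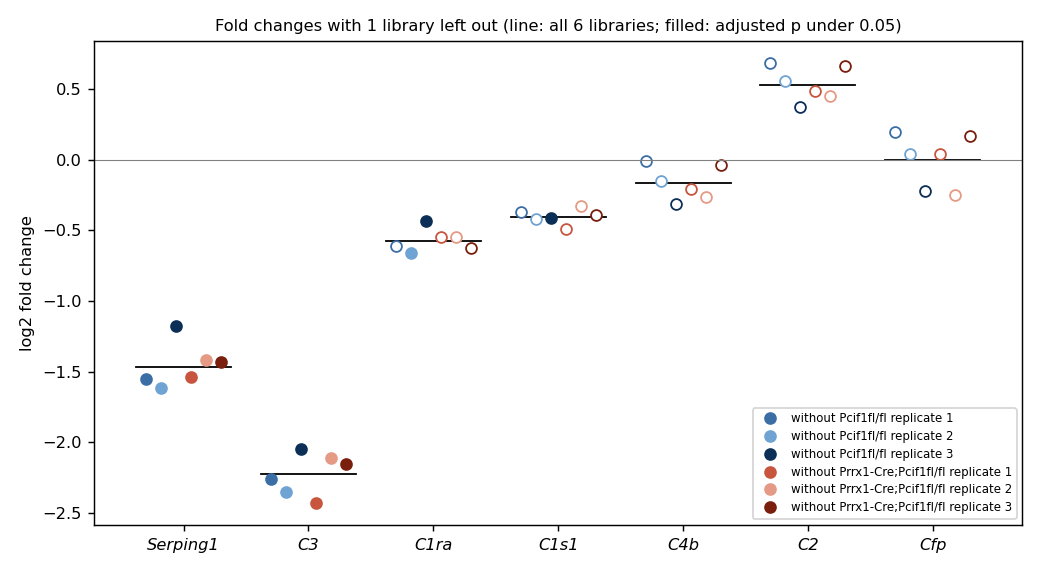
Log2 fold change of CKO over control (vertical axis) for the 7 tested genes other than Cfd, with 1 of the 6 libraries left out at a time (points, filled where the adjusted p was under 0.05) and with all 6 (lines). C3 and Serping1 stay filled throughout, C1ra is filled in 2 of 6, and Cfp lies on both sides of 0.

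The control libraries did not vary alike in all genes. Replicate 3 was the highest of its group for C1ra, C3 and Serping1 and the lowest for C2, C4b, Cfd and Cfp. Without it, 5 of the 8 genes tested were called lower, with C1s1 added to C1ra, C3, Cfd and Serping1, and the share of all genes called lower was 10.4% at that setting. The estimates for C4b and Cfp were then -0.32 (adjusted p = 0.0536, edgeR) and -0.22 (adjusted p = 0.341, edgeR), and that for C2 was 0.37. C1ra moved to -0.44 and remained called.

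Per length, as CPM per kilobase of exon, the levels spanned a wide range. Serping1 was first in control at 206 ± 64.55 (SD, n = 3), followed by Cfp at 65.0 ± 19.4, C1ra at 17.8 ± 2.81, C4b at 12.2 ± 2.59, C1s1 at 11.1 ± 0.437 and C3 at 8.18 ± 1.68. Cfd at 1.685 ± 0.415, C2 at 0.9195 ± 0.2025 and Cfb at 0.123 ± 0.0891 CPM per kilobase came last. C4b and C1s1 were the only neighbours in this order whose libraries overlapped. In CKO MSCs Serping1, at 74.8 ± 6.995 CPM per kilobase, no longer stood clear of Cfp, at 64.75 ± 18.4. C3 kept its sixth place at 1.74 ± 0.404 CPM per kilobase, and Cfd went from seventh to last. C1ra and C4b overlapped there, as did C4b and C1s1, and C3 and C2, the next below it at 1.33 CPM per kilobase.

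Of 53 further genes of the cascade listed by function, 46 were in the table and 28 were tested. Clu, C6 and Csmd1 were lower in CKO cultures and Itgax was higher. That is 3 of 28 lower and 1 of 28 higher, against the same 4.51% and 2.88% of all genes. C6 passed the filter on low counts only through the control libraries, so its entry into the count was tied to a fall. The median log2 fold change of the 28 was -0.032, and that of all genes tested was 0.0017. Every CKO library lay below every control library in 4 of the 28 and above in 7, where 15.7% of all genes tested lay below and 15% above. Mbl2, Hc, C8a, C8b, Cfhr3, Cfhr4 and Cd55b were not analysed here.

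**Figure D3:**
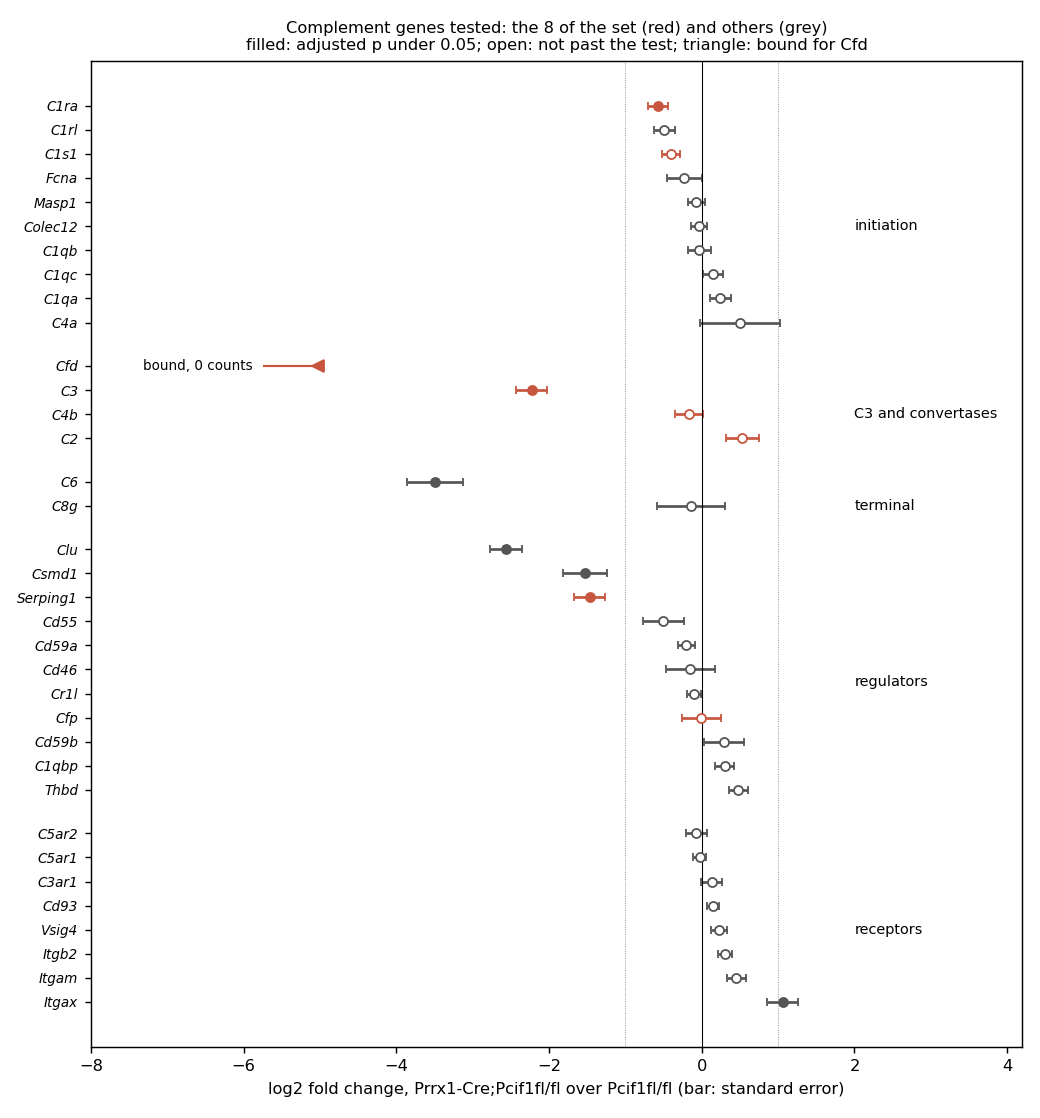
Log2 fold change of CKO over control (horizontal axis, bars are the SE) for the 8 tested genes of the set (red) and the other complement genes tested except 1 (grey), grouped by role, filled where the adjusted p was under 0.05. Cfd is drawn at its bound of 5.03 below 0, C3, C6, Clu, Csmd1 and Serping1 lie beyond 1 below 0, and Itgax lies beyond 1 above 0. Most recognition molecules and most other receptors lie near 0.

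Among recognition molecules and initiating proteases, edgeR called 0 of 8 tested genes, against 4.51% of all genes lower and 2.88% higher. The median of the 8 was -0.032. At an unadjusted p-value under 0.05, 1 was lower, against 11.8% of all genes, and DESeq2 called Mbl1 lower, which was under the filter of edgeR. C1q, whose 3 chains bind antibody and dying cells, recruits the proteases encoded by C1ra and C1s1. C1qa was at 1063 to 1527 CPM in control and 1391 to 1679 CPM in CKO, with a log2 fold change of 0.25 (SE 0.14, adjusted p = 0.377, edgeR). C1qb and C1qc, at 1266 to 1933 and 1354 to 1901 CPM in control, had log2 fold changes of -0.029 and 0.15 and overlapped between groups. C1rl, a C1r-like protease, was at 7.96 to 8.78 CPM in control and 5.485 to 6.47 CPM in CKO. Its groups were apart, and its difference of -0.49 did not pass the test (adjusted p = 0.0771, edgeR). Masp1, a lectin-pathway protease, was at 122 to 159 and 128 to 133 CPM, and the lectin Fcna had a log2 fold change of -0.23 (adjusted p = 0.623, edgeR). Without control replicate 3, C1rl and Fcna were both called lower by edgeR, where 10.4% of all genes were. The copies C1rb, with 1 to 3 reads a library, and C1s2, with 3 to 9, were too low to be tested, and adding their reads to C1ra and C1s1 gave -0.57 and -0.39.

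Of the terminal genes 2 were tested. C6, which takes part in the membrane attack complex, had 71, 88 and 95 reads in control and 7, 2 and 9 in CKO libraries. It passed the filter only through control, and its level fell from 3.10, 3.23 and 3.41 to 0.315, 0.0996 and 0.433 CPM (log2 fold change -3.49, SE 0.37, adjusted p = 0.000964, edgeR). C8g, a chain of C8, had a log2 fold change of -0.14 (adjusted p = 0.887, edgeR). Of 10 regulators tested, 2 were lower, against 4.51% of all genes, with a median of -0.16. Clu, clusterin, a chaperone that can hold the terminal complex off membranes, was at 22.5, 19.0 and 29.4 CPM in control and 3.38, 3.83 and 4.76 CPM in CKO libraries (log2 fold change -2.57, SE 0.21, adjusted p = 0.000282, edgeR). Csmd1, a membrane protein with complement control repeats, fell by 1.525 on the log2 scale (adjusted p = 0.0155, edgeR), from 2.27 to 3.01 CPM to 0.697 to 1.25 CPM. Its call was lost without control replicate 2 and without CKO replicates 1 or 2. Thbd, C1qbp and Cd55 had log2 fold changes of 0.48, 0.30 and -0.50 and were not called by edgeR. Thbd was called higher by DESeq2, by edgeR without the expression filter and by edgeR without control replicate 3.

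Of 8 receptors tested, 1 was higher, with a median log2 fold change of 0.18, and in 5 of the 8 all CKO libraries were above all control libraries. Over all genes tested, 2.88% were called higher and 15% had all CKO libraries above. Itgax, the alpha chain of complement receptor CR4, was at 6.77, 6.91 and 10.15 CPM in control and 18.4, 13.1 and 18.3 CPM in CKO libraries. The log2 fold change was 1.06 (SE 0.21, adjusted p = 0.0185, edgeR). Itgam and Itgb2, the chains of CR3, had values of 0.45 and 0.30 with adjusted p-values of 0.0645 and 0.0843 from edgeR. DESeq2 called both higher, and edgeR without the expression filter called Itgam. Vsig4, Cd93 and C3ar1 were at 0.22, 0.15 and 0.13. The call of Itgax was lost without control replicates 1 or 2 or CKO replicates 1 or 3, and without control replicate 3 the receptors Itgam, Itgb2, C3ar1, Vsig4 and Cd93 were called higher beside it, where 11.1% of all genes were.

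Markers of other cell types were set beside the complement genes. Their counts are to be read against 4.51% of all genes called lower and 2.88% called higher. Of the adipocyte list, 9 of 10 genes were in the table and 8 were tested, and Adipoq, Plin1, Plin4, Cidec and Pparg were lower. Adipoq, Plin1 and Cidec passed the filter on low counts only through the control libraries, so their entry into the count was tied to a fall, whereas Plin4 and Pparg passed in both groups. Adipoq, the adipocyte hormone adiponectin, was at 53.8, 42.85 and 44.3 CPM in control and 1.485, 0.697 and 0.289 CPM in CKO libraries. Plin1, the coat protein of fat droplets, was at 3.01, 2.17 and 4.12 CPM and then at 0 in each of the 3, as Cfd was. Pparg, the nuclear receptor that drives fat cell formation, was at 29.1, 25.95 and 35.75 CPM in control and 10.4, 10.8 and 9.43 CPM in CKO libraries. Fabp4 was higher in every CKO library than in any control library without passing (log2 fold change 0.46, adjusted p = 0.0545, edgeR). Lpl and Cebpa, at 0.23 and -0.19, overlapped between groups and were not called by edgeR. Together with Fabp4 they hold most of the summed level of the list, 791 to 837 CPM in control and 671 to 871 CPM in CKO. The part of adipocyte transcripts in the values of Cfd, C3 and Serping1 was not tested.

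**Figure D4:**
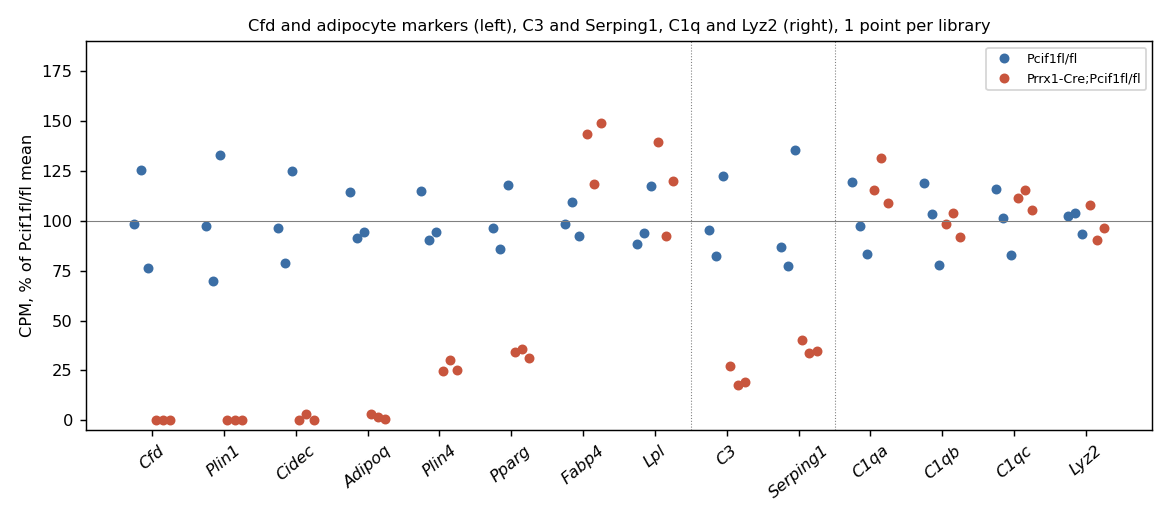
CPM of each library as a percentage of the mean of the 3 control libraries (linear vertical axis) for Cfd and 7 adipocyte markers (left), C3 and Serping1 (middle), and the C1q chains and the macrophage gene Lyz2 (right). Cfd and Plin1 are at 0 in all CKO libraries, C3 lies between 17.9% and 27.0% and Serping1 between 33.9% and 40.1%, whereas every library of C1q and Lyz2 lies between 77.8% and 131%.

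Of 10 macrophage markers 1 was higher, Fcgr1, a receptor for antibody. Lyz2, a lysozyme of macrophages, was at 22770 to 25240 CPM in control and 21980 to 26230 CPM in CKO libraries, and the groups overlapped. Other macrophage genes did not overlap without being called by edgeR, with Csf1r, the receptor for macrophage colony-stimulating factor, lower in every CKO library (log2 fold change -0.26, adjusted p = 0.141, edgeR) and Cd14 and Adgre1 higher in every one (0.67 and 0.24, adjusted p = 0.0718 and 0.398, edgeR). The 6 endothelial markers summed to 24.3 to 37.25 CPM in control and 21.1 to 23.3 CPM in CKO libraries, with log2 fold changes of -0.66 for Cdh5, -0.48 for Pecam1, -0.56 for Emcn, -0.38 for Tie1, 0.26 for Kdr and 0.23 for Tek, none of which edgeR called. The neutrophil list was scarce, at 11.4 to 15.1 and 13.5 to 17.1 CPM in sum, S100a8 was higher but passed the filter only through the CKO libraries, Camp and Csf3r were at -0.59 and 0.13 and not called by edgeR, and Ly6g, Mpo and Ngp were at or near 0. Of the 10 mesenchymal stromal markers 5 were higher, Col1a1, Col1a2, Thy1, Cd44 and Ly6a, and 2 lower, Eng and Pdgfra. Of 6 osteoblast markers tested, Sp7, Alpl and Ibsp were lower, Runx2, Spp1 and Dmp1 had log2 fold changes of -0.41, 0.43 and 0.48 and were not called by edgeR, and Bglap, made by mature osteoblasts, was between 0.0450 and 0.249 CPM. These shifts in stromal transcripts accompany those of C3 and Serping1, and their part in them was not tested.

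Interferons and inflammatory cytokines are known to raise several complement genes. Of 20 interferon-stimulated genes tested, Oas1a (log2 fold change 0.80) and Isg15 (0.81) were higher, against 2.88% of all genes tested, with a median of 0.42 over the list, and Irf7 was at 1.01 without passing (adjusted p = 0.0697, edgeR). In 8 of the 20 every CKO library lay above every control library, against 15% of all genes tested, and in 12 the groups overlapped. At an unadjusted p-value under 0.05, 8 were higher, against 9.56% of all genes. Control replicate 3 stood apart in Ifit1, at 113 CPM against 30.4 and 26.7 CPM in control replicates 1 and 2. Their part in the complement values was not tested. Of 17 transcription factors and receptors known in complement gene control, 3 were lower, with a median log2 fold change of -0.096, against 4.51% called lower and a median of 0.0017 over all genes tested. Among them were Il1r1, the interleukin-1 receptor (log2 fold change -1.08, adjusted p = 0.00193, edgeR), and Nr1h3, the sterol receptor LXR alpha (-0.53, adjusted p = 0.0191, edgeR). The part of these in the complement values was not tested.

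The genes whose profile over the 6 libraries was most like that of a called gene were found by the mean absolute difference of log2(CPM + 1) values centred on each gene's own mean, over 12635 genes. For C3 they were Ebf3 at 0.109 and Islr at 0.112, followed by Gm31520, and Ebf3 and Islr had log2 fold changes of -2.27 and -2.26. For Serping1 they were B3gnt5 at 0.0761, Plekhh2 at 0.07905 and Scd1 at 0.0835. Scd1, an enzyme that desaturates fatty acids, had means of 436 CPM in control and 159.5 CPM in CKO libraries. For Cfd they were Mtarc1 at 0.0784, Kank4 at 0.09625 and Gja1 at 0.0965, and for C1ra Mzf1 at 0.0292, Gm43305 at 0.0352 and Proser3 at 0.0372. The pseudocount flattens the profile of a gene as low as Cfd, so its list is the least informative of these.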

How the data were processed

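The data are 6 paired-end libraries of poly(A) RNA from MSCs, 3 CKO and 3 control. The deposited values are raw counts of reads per gene, which the authors obtained after mapping to mm10 with HISAT2. How reads were assigned to genes, and whether strand was used, is not given in the sources used here. Of 20163 rows, 92 repeated an identifier and were dropped. The number of sample columns left unused was 0. Groups and replicate numbers follow the sample labels.

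The fit used edgeR 4.0.16 in R 4.3.3, with TMM, filterByExpr, glmQLFit, glmQLFTest and Benjamini-Hochberg adjustment, without covariates, as the labels name no batch. Each standard error was obtained from the estimate and its F statistic, as estimate over root F. DESeq2 1.42.0, limma-voom (limma 3.58.1), other scalings and filters, a replicate block, reads of paralogs added, a fold threshold and leaving out each library were the alternatives. The fits were tested on simulated data. Gene positions and exon lengths are from GENCODE M21 on GRCm38, which held 20059 of the 20071 identifiers, and promoters from RefSeq on GRCm38.p6.

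The 9 genes, the lists of other complement genes and markers and the alternatives were chosen with earlier results of these data known. All 9 are named, as are up to 5 genes per complement list and 3 per other list with the smallest p-values, the paralogs C4a, C1rb and C1s2, and the 3 profiles most like each called gene. Other genes of the lists that are named were picked after their values were seen. The values of 1 listed complement gene and 1 listed receptor are not reported here. Floors and standard errors cannot separate PCR duplicates from molecules.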

Additional observations from a re-analysis of the deposited data

How the results depend on the processing

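C3, Cfd and Serping1 were called lower in all 13 alternatives run for each, with Serping1 between -1.62 and -1.18 on the log2 scale and highest adjusted p-values of 0.00639, 0.0143 and 0.0327. C1ra was called in 10 of 14, between -0.66 and -0.44, and C1s1 in 2 of 14. C2 and C4b were called in none, at 0.37 to 0.68 and -0.32 to -0.012. The number of the 9 genes called lower lay between 3 and 5. Cfp changed sign around 0, to 0.0074 with limma-voom and 0.0051 with the replicate block, and from -0.25 to 0.20 with a library left out. Among the other complement genes, the 1 higher became 4 with DESeq2 and 3 without the expression filter, and 0 to 7 with a library left out, with 7 without control replicate 3. The 3 lower became 5 with DESeq2, which added Mbl1 and Vtn, and 2 to 5 with a library left out, with 5 without control replicate 3 and 2 (Csmd1 lost) without control replicate 2 or CKO replicates 1 or 2. The cause was not tested.

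Same-numbered libraries did not deviate together (correlations of 0.070, -0.055 and 0.0027), so the numbers were not used as pairs. With the replicate block 4 of the complement genes remained lower, and over all genes 267 were higher and 503 lower, against 396 and 620. Over all genes the counts were 1544 higher and 1447 lower without control replicate 3, and 148 to 293 higher and 324 to 486 lower without each other library. DESeq2 gave 593 higher and 830 lower, and total-count scaling 356 and 702. Depth limits the genes whose libraries held under 100 reads each, among them Cfb, Cfd, C4a, C6, C8g and Csmd1.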
